A study of Rattus norvegicus with 35 samples.

Results

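The genes described here are the cell cycle and mitosis genes of rat liver, a set of 37 genes chosen by symbol and split into replication genes (10), G1 and G1/S cyclins (3) and genes of S phase exit, G2 and mitosis (24, called the mitosis members). A gene was represented by the probe set that the platform annotation gives to its symbol alone, and by the one with the highest mean over all arrays where several exist. Of the 37 genes, 35 were measured, out of 14217 genes with such a probe set. Rrm2, a subunit of ribonucleotide reductase, had only probe sets shared with other symbols, and Tpx2, a spindle assembly factor, was not listed. The 35 measured members were 9 replication genes, 3 G1 cyclins and 23 mitosis genes.

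The liver samples came from male Sprague Dawley rats that were 7 weeks old at the start and received TBB (2-ethylhexyl-2,3,4,5-tetrabromobenzoate), a brominated ester used in flame retardant mixtures, by oral gavage in corn oil at 5 ml/kg. Every rat, controls included, was gavaged with corn oil on 5 consecutive days, necropsy was 1 day later, and the left lobe of the liver gave the RNA. The 6 groups were corn oil alone (vehicle, n = 5 arrays) and TBB at 0.05, 0.55, 5.50, 55 and 550 mg/kg per day (n = 6 arrays each). The labels number the replicates of each group but do not say that each array is a separate animal, so a p-value here speaks of the spread between samples alone, part of which may be technical.

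In the adult liver nearly all hepatocytes rest outside the cell cycle and can re-enter it, as after partial hepatectomy or exposure to a mitogen. Entry is driven by D and E cyclins, after which E2F factors switch on genes of DNA replication: the MCM helicase subunits that license origins, the sliding clamp PCNA and the enzymes that make nucleotides. A later set, which includes the B cyclins, the cyclin-dependent kinase CDK1, the spindle checkpoint and the spindle motors, is switched on towards G2 and M phase. Promoters of this later set are known for the CHR (cell cycle genes homology region), bound by the MuvB complex of DREAM, B-MYB and FOXM1 assemblies, and for nearby CCAAT boxes bound by NF-Y.

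The promoters of the 3 members that passed the test at 550 mg/kg against vehicle are shown, with that of Mcm6, a helicase subunit that did not pass, for contrast. Mcm6 was picked for printing after its motifs had been seen. The sequences are from RefSeq (assembly GRCr8) and run from 250 bases before to 50 bases after the annotated start, on the minus strand at chr8:79981609-79981908 (Ccnb2), chr1:199952544-199952843 (Mki67), chr3:135504872-135505171 (Bub1) and chr13:42404303-42404602 (Mcm6). Capitals mark the CHR words TTTGAA and TTTAAA, the word CCAAT and the E2F words TTTGGCGC, TTTGCCGC, TTTCGCGC and TTTCCCGC, read on both strands, so that ATTGG is CCAAT on the other strand.
Ccnb2: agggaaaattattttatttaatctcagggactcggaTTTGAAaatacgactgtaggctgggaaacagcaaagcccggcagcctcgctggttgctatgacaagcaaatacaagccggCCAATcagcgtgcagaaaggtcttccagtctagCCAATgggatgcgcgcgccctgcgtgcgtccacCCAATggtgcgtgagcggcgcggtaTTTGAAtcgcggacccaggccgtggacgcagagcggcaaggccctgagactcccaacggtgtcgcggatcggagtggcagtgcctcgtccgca
Mki67: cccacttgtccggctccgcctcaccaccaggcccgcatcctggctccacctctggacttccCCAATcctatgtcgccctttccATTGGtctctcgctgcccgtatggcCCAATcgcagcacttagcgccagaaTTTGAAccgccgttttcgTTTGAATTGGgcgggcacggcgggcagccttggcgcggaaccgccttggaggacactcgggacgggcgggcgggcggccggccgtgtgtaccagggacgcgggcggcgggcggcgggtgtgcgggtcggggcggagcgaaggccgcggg
Bub1: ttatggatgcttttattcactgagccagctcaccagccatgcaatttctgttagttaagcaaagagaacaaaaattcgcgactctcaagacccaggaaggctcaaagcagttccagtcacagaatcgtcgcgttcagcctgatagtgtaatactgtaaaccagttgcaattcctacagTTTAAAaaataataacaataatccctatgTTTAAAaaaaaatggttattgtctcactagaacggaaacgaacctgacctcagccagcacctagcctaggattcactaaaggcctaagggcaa
Mcm6: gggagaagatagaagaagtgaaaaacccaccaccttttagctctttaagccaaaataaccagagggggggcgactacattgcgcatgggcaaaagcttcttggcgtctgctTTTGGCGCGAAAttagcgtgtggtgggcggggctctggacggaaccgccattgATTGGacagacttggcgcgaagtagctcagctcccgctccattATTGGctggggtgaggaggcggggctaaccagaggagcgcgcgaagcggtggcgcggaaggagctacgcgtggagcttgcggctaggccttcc

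In the Ccnb2 promoter 2 TTTGAA words began 214 and 43 bases before the start, with 3 CCAAT words between them. In the Mki67 promoter 2 TTTGAA words lay 117 and 99 bases before the start, the second sharing its last base with 1 of 4 CCAAT words. The Bub1 window held 2 TTTAAA words, at 72 and 43 bases before the start, and no CCAAT word. The Mcm6 promoter held no CHR word, 2 CCAAT words and 2 overlapping E2F words, one on each strand, that begin 139 and 135 bases before the start. A match to these letters is a description of the window and not a measured binding site.

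The mitosis and replication members differed in these words. Promoter windows were found for 28 of the 35 measured members, and the first listed window was used where a gene had several, which among members touched only Cdkn3. A CHR word was present in 18 of 19 mitosis promoters (94.7%) and in 1 of 8 replication promoters (12.5%), against 27.9% of all 27457 promoters in the table. The E2F words were present in 1 of 19 mitosis promoters (5.26%, Cdk1) and in 6 of 8 replication promoters (75.0%), against 2.25% of all promoters. CCAAT was found in both classes, in 14 of 19 and 6 of 8, against 37.7% of all promoters. A CHR word and CCAAT stood together in 14 of 19 mitosis promoters and in 0 of 8 replication promoters, against 11.1% of all. The median GC content was 58.0% for mitosis members, 57.2% for replication members and 52.3% for all promoters.

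All values below are log2 values from RMA, the robust multi-array average, and every difference or error is on the log2 scale unless a fold is named. Correlations between whole arrays ran from 0.988 to 0.996, and arrays have no read depth, so precision depends on how many there are; for a difference at 550 mg/kg the median standard error was 0.085. The liver identity of the samples was plain in its defining markers, with 11 of 11 hepatocyte markers averaging 9.62 (Tat) to 14.6 (Alb) over all arrays. Cyp1a1, a cytochrome P450 induced through the aryl hydrocarbon receptor, averaged 4.53 ± 0.20 in vehicle (SD, n = 5), 8.78 ± 0.69 at 55 mg/kg and 11.86 ± 0.37 at 550 mg/kg (SD, n = 6 each). A test was called at an adjusted p under 0.05 (limma, Benjamini-Hochberg over all 31042 probe sets within a comparison).

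Each dose was compared with vehicle to find where on the dose scale the cycle genes moved. Of the 35 members 3 rose at 550 mg/kg, the cyclin Ccnb2, the checkpoint kinase Bub1 and the proliferation marker Mki67, all of the mitosis class, while 0.499% of all probe sets were called in either direction, 0.354% higher and 0.145% lower. No replication gene and no G1 cyclin was called, with 1 of each at an unadjusted p under 0.05 (Rrm1 higher, Ccnd1 lower; limma). Of the 23 mitosis members, 22 had a higher mean at 550 mg/kg than in vehicle, with a median difference of 0.44, and 19 had an unadjusted p under 0.05, all higher. Of the 9 replication members, 6 had a higher mean and the median difference was 0.016. Over all 14217 genes 46.5% were higher and the median difference was -0.0083, and 4.45% of probe sets were higher and 4.22% lower at an unadjusted p under 0.05. In bulk liver, fewer cells of a type and less RNA per cell cannot be told apart, and the same holds for more cells and more RNA per cell.

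**Figure D1:**
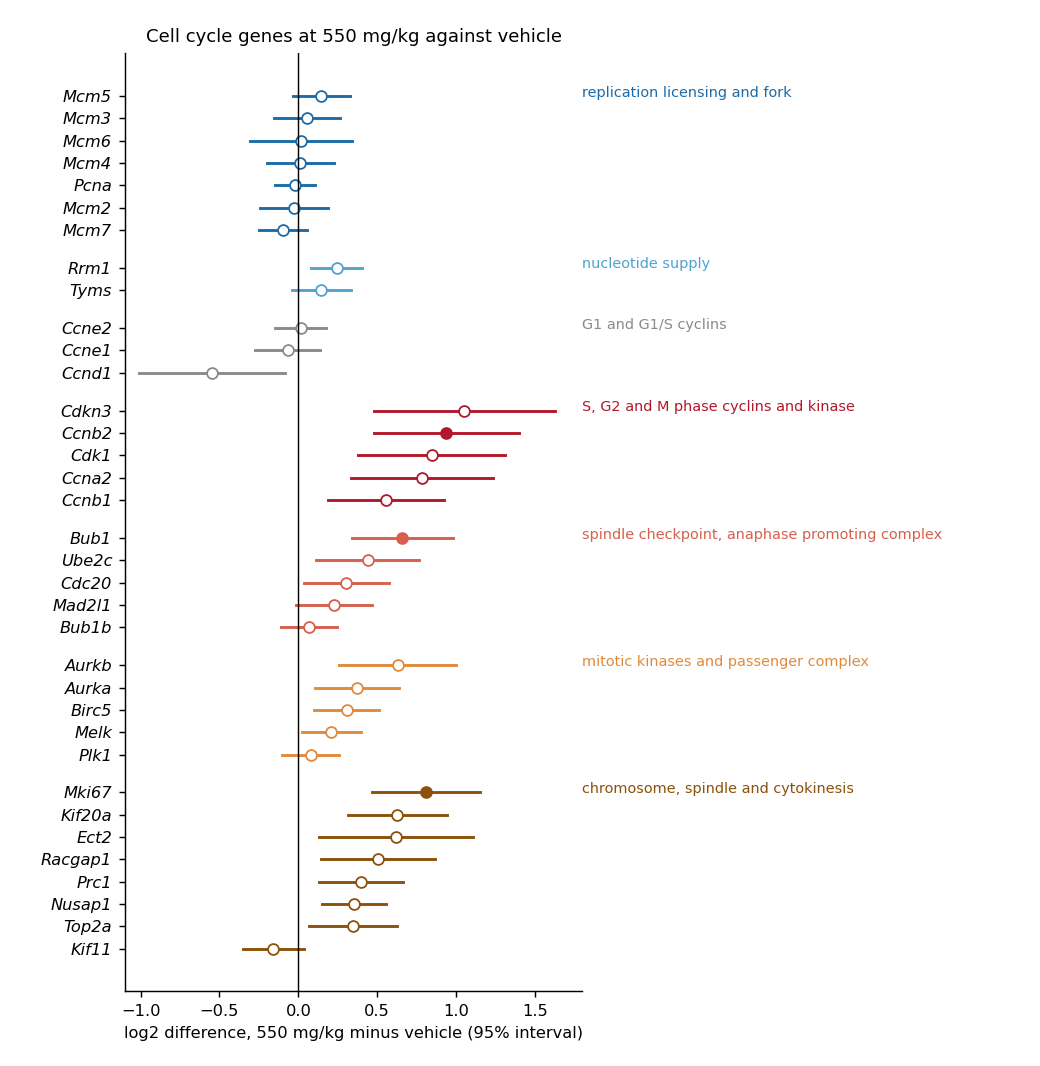
Log2 difference between 550 mg/kg (n = 6) and vehicle (n = 5) for the 35 measured members, grouped and coloured by role, with 95% intervals from limma as lines. Filled points mark the 3 called members (Ccnb2, Bub1 and Mki67); the intervals of 19 mitosis members lie above 0, while among replication members that holds for Rrm1 alone.

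Mki67, which encodes the Ki-67 protein that coats chromosomes in mitosis and marks cycling cells, had vehicle values of 3.43, 3.59, 3.81, 4.25 and 4.21. The 6 arrays at 550 mg/kg ran from 4.19 to 5.33 with a median of 4.48. Of these 6 arrays 5 lay above the highest vehicle array, and the remaining one fell inside the vehicle range. The difference was 0.81 ± 0.17 (SE), a 1.75-fold rise, with an adjusted p of 0.0132 (limma). At 0.05, 0.55, 5.50 and 55 mg/kg its means were 3.77, 3.69, 3.75 and 3.85, close to the vehicle mean of 3.86 ± 0.36 (SD, n = 5).

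Ccnb2, a B-type cyclin that activates CDK1, had vehicle values of 5.25, 5.97, 5.89, 6.70 and 5.78. At 550 mg/kg it ran from 6.29 to 7.60 with a median of 6.77, and all 6 arrays lay above the vehicle mean. Because vehicle replicate 4 was high, only 3 of the 6 arrays exceeded every vehicle array. The difference was 0.94 ± 0.23 (SE), or 1.92-fold, with an adjusted p of 0.0443 (limma).

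Bub1, a kinase of the spindle assembly checkpoint, had vehicle values of 3.24, 3.73, 3.83, 3.91 and 3.81. Its lowest, median and highest values at 550 mg/kg were 3.82, 4.52 and 4.83. Replicate 4 at this dose lay among the vehicle arrays and the other 5 lay above all of them. The difference was 0.66 ± 0.16 (SE), or 1.58-fold, with an adjusted p of 0.0443 (limma). Bub1 and Mki67 are dim on these arrays, among the 40% of probe sets with the lowest means, where RMA values level off and folds are understated.

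The count of 3 rested on single arrays of the vehicle group and of the 550 mg/kg group. Vehicle replicate 1 held the lowest vehicle value of each of the 3 genes, and without it no member was called at 550 mg/kg. Without vehicle replicate 4, 8 were called: Ccna2, Ccnb2, Cdk1, Cdkn3, Bub1, Mki67, Kif20a and Nusap1. Without vehicle replicate 2, 3 or 5, or without replicate 1, 5 or 6 at 550 mg/kg, Mki67 was the 1 member called. With 1 array left out in turn, the differences ran from 0.77 to 1.13 for Ccnb2, from 0.54 to 0.77 for Bub1 and from 0.68 to 0.91 for Mki67. The highest adjusted p was 0.204 for Ccnb2 and Bub1 and 0.0782 for Mki67 (limma). A fit on the 2 groups alone, in place of one spread estimated over all 35 arrays, called none. These counts were not set against the share of all probe sets called in the same fits.

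**Figure D2:**
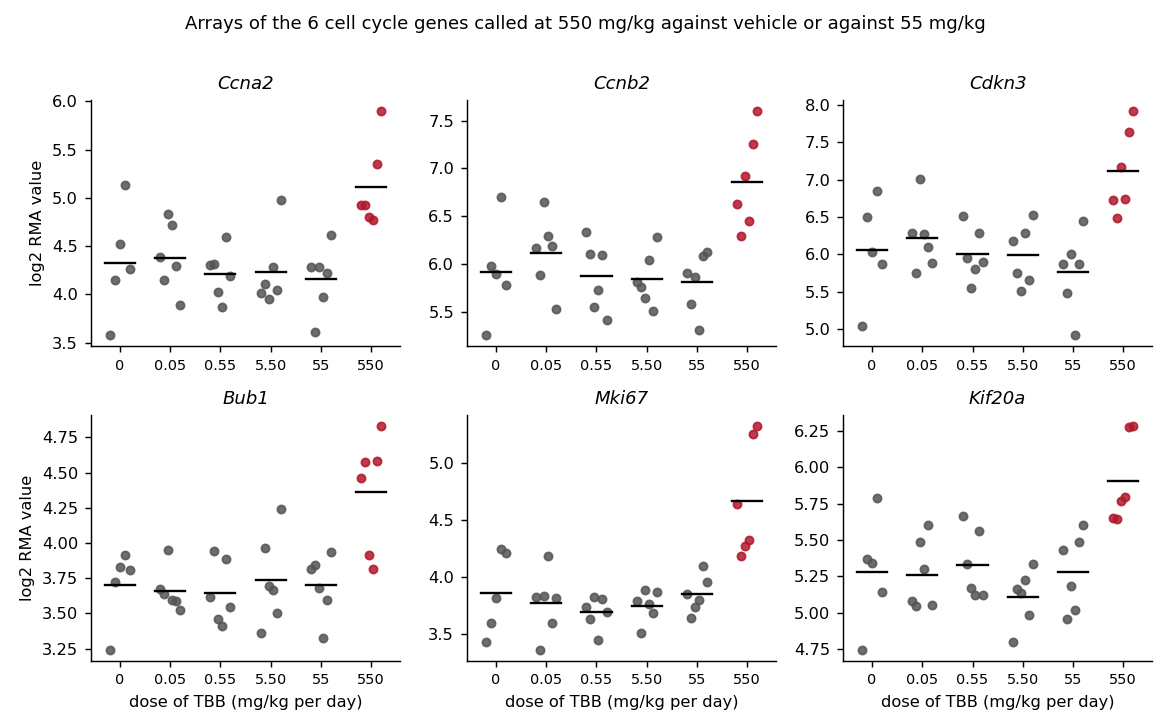
Log2 RMA value of each array (points) and group mean (lines) by daily dose in mg/kg for the 6 members called at 550 mg/kg against vehicle or against 55 mg/kg; the 550 mg/kg arrays are red, and each panel has its own axis. In each panel the mean at 550 mg/kg lies above those of the other 5 groups, while single vehicle or low-dose arrays reach into its range.

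The remaining members of the cyclin and kinase role had differences of similar size without passing. Cdkn3, a phosphatase that acts on cyclin-dependent kinases, differed by 1.05 ± 0.28 (SE; adjusted p = 0.0881, limma), with vehicle values of 5.04, 6.49, 6.03, 6.85 and 5.87. The 550 mg/kg arrays ran from 6.49 to 7.91 with a median of 6.95, and 3 of 6 arrays lay above all vehicle arrays. Cdk1, the kinase that drives entry into mitosis, differed by 0.84 (adjusted p = 0.10) and Ccna2, the cyclin of S phase and G2, by 0.78 (adjusted p = 0.13). Ccnb1, the other B-type cyclin, differed by 0.56 (adjusted p = 0.22). Each of the 5 members of this role had an unadjusted p under 0.05, and their median difference of 0.84 was the highest of the 7 roles.

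In the spindle checkpoint and anaphase promoting complex role, values were more uneven. Next to Bub1, Ube2c, the ubiquitin-conjugating enzyme of the anaphase promoting complex, differed by 0.44 and its activator Cdc20 by 0.30. Mad2l1, a checkpoint protein that holds Cdc20 inactive, differed by 0.23, and the checkpoint kinase Bub1b by 0.06. The 95% interval for Bub1b ran from -0.11 to 0.24. None of these 4 was called, with adjusted p-values from 0.34 for Ube2c to 0.90 for Bub1b (limma). Of 3 probe sets of Mad2l1, the 1 of middle signal, not the one used for the gene, passed with a difference of 0.31 (adjusted p = 0.0446, limma).

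Among the mitotic kinases and the chromosomal passenger complex no member was called. Aurkb, the kinase of that complex, differed by 0.63 (adjusted p = 0.14), Aurka, a kinase of the spindle poles, by 0.37, and Melk, a kinase of dividing cells, by 0.21. Birc5 (survivin), a passenger protein, differed by 0.31 (adjusted p = 0.23), with vehicle values of 5.41, 5.57, 5.23, 5.55 and 5.61. Its 550 mg/kg values ran from 5.62 to 6.03 with a median of 5.70. Birc5 was the 1 member of 35 whose 550 mg/kg arrays all lay above all vehicle arrays, and 0.796% of all probe sets separated in that way.

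Plk1, a polo-like kinase with roles from centrosome maturation to cytokinesis and the member of this role with the highest mean, had vehicle values of 5.54, 5.72, 5.52, 5.94 and 5.81. Its lowest, median and highest values at 550 mg/kg were 5.53, 5.81 and 5.99, and 5 of the 6 arrays lay inside the vehicle range. The difference was 0.08 (95% interval -0.10 to 0.26; adjusted p = 0.88, limma).

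Of the 8 measured genes of chromosome structure, spindle and cytokinesis, 7 had a higher mean and 7 an unadjusted p under 0.05. Besides Mki67, Kif20a, a kinesin of the central spindle, differed by 0.63 ± 0.15 (SE) and missed the threshold (adjusted p = 0.0529, limma). Its vehicle values were 4.75, 5.37, 5.34, 5.79 and 5.14, and at 550 mg/kg it ran from 5.65 to 6.29 with a median of 5.78. Ect2, which activates RhoA at the cleavage furrow, differed by 0.62 and its partner Racgap1 by 0.50. Prc1, which bundles central spindle microtubules, differed by 0.40, and both Top2a, the topoisomerase that untangles chromosomes, and Nusap1, a microtubule-binding protein, by 0.35.

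Kif11, the kinesin that pushes spindle poles apart, was the 1 mitosis member with a lower mean, by -0.16 (95% interval -0.35 to 0.04; adjusted p = 0.69). Its other probe set differed by 0.11 in the opposite direction. Where a member had several single-symbol probe sets, Ccnb1, Ccnd1, Ccne2, Mad2l1, Nusap1, Racgap1 and Top2a had the same sign in each, and Cdc20 had 4 of 5 higher.

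The replication members had smaller differences at 550 mg/kg than most mitosis members. Their differences ran from -0.10 (Mcm7) to 0.24 (Rrm1), and the 95% intervals of all 9 lay between -0.31 and 0.40. The intervals of 19 mitosis members excluded 0 while 8 of the 9 replication intervals included it. That contrast between the classes is a description of the 2 lists, and no test compared them. Against vehicle the median difference was 0.016 for replication members and 0.44 for mitosis members. With 550 mg/kg set against the mean of the other 5 groups, chosen after the values were seen, these medians were 0.13 and 0.39. The mean over the replication members was highest in vehicle replicate 5, and the part of that array in the class contrast was not tested.

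Pcna, the sliding clamp of the replication fork, had vehicle values of 9.49, 9.33, 9.40, 9.46 and 9.47. Its 550 mg/kg values ran from 9.29 to 9.57 with a median of 9.40, and 1 of 6 arrays lay above and 1 below the vehicle range. The difference was -0.02 (95% interval -0.15 to 0.10; adjusted p = 0.96, limma). Of the MCM helicase subunits, Mcm5 differed by 0.14, Mcm3 by 0.05, Mcm6 by 0.02, Mcm4 by 0.01, Mcm2 by -0.03 and Mcm7 by -0.10, with adjusted p-values of 0.70 to 0.99.

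Nucleotide supply leaned higher without a call. Rrm1, the large subunit of ribonucleotide reductase, had vehicle values of 6.82, 6.66, 7.00, 6.95 and 7.04. The 6 arrays at 550 mg/kg ran from 7.02 to 7.32 with a median of 7.12, and 5 of 6 arrays lay above all vehicle arrays. The difference was 0.24 ± 0.08 (SE), or 1.18-fold (adjusted p = 0.22, limma). Tyms, thymidylate synthase, differed by 0.15 (adjusted p = 0.72).

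The G1 cyclins did not share the direction of the mitosis members. Ccnd1, the cyclin that couples growth signals to cycle entry, had vehicle values of 9.99, 9.32, 10.10, 10.31 and 11.05. The 550 mg/kg arrays had a lowest, median and highest value of 8.80, 9.61 and 10.15, all below the vehicle mean. The difference was -0.54 ± 0.23 (SE; adjusted p = 0.44, limma), and its 3 probe sets ran from -0.60 to -0.54. At 0.05 mg/kg the mean was 0.49 above vehicle (adjusted p = 0.81). The E cyclins, which start S phase, differed by -0.07 (Ccne1) and 0.01 (Ccne2), and the sign for Ccne2 changed under cyclic loess.

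At the 4 lower doses no member was called by limma, where the share of all probe sets called was 0%, 0% and 0% at 0.05, 0.55 and 5.50 mg/kg and 0.00644% at 55 mg/kg. With an unadjusted p under 0.05 there was 1 member at each of these doses. It was Ccnd1, higher, at 0.05 mg/kg (2.82% of all probe sets were higher in this way), Mcm4, lower, at 0.55 mg/kg (1.84% lower) and 5.50 mg/kg (2.77% lower), and Mcm2, lower, at 55 mg/kg (1.97% lower). The median difference of the mitosis members was 0.018, -0.039, -0.069 and -0.014 in order of dose, and the highest single difference was 0.21. All of these comparisons share the same 5 vehicle arrays.

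The replication members were mostly below vehicle at these doses, with 6, 8, 7 and 7 of 9 lower and medians of -0.032, -0.058, -0.10 and -0.045. Mcm6 differed by -0.25, -0.30, -0.30 and -0.27, with adjusted p-values of 0.87 to 1.00. Vehicle replicate 5 had the highest Mcm6 value of its group, 6.21 against 5.02 to 5.54 in the other 4 vehicle arrays. It was also the highest vehicle array for Mcm2 (6.20), Mcm4 (7.25), Mcm5 (5.13) and Mcm7 (7.82), and its part in the lower replication values was not tested.

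**Figure D3:**
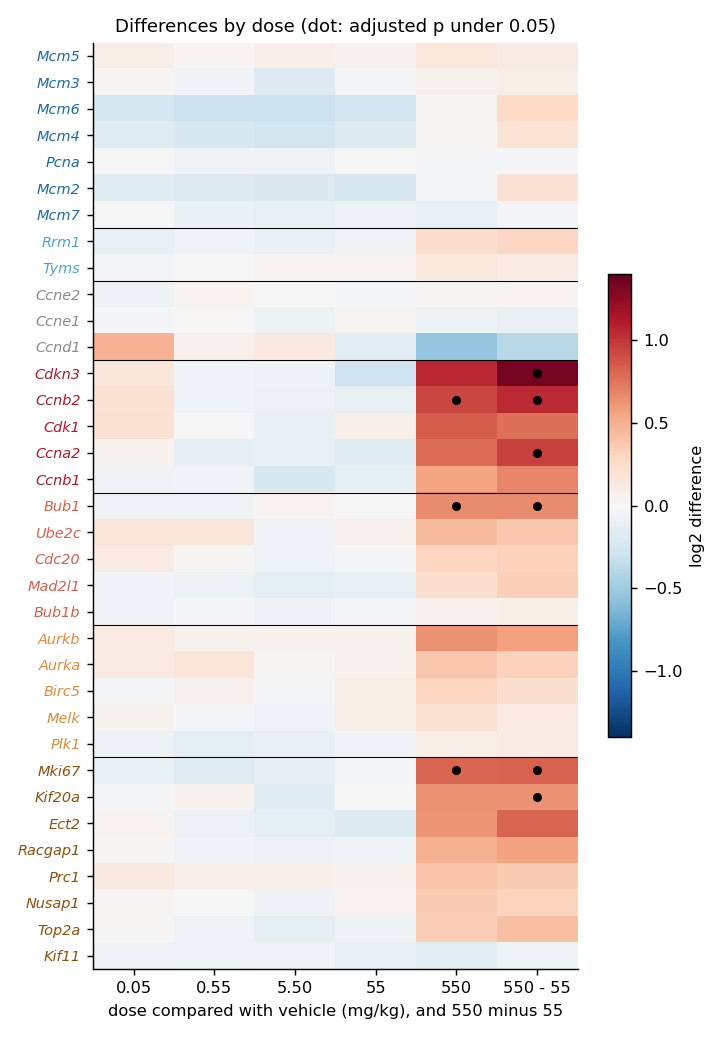
Log2 difference from vehicle at each dose, and of 550 minus 55 mg/kg in the last column, for the 35 measured members; red is higher, blue lower, gene names are coloured by role, and dots mark an adjusted p under 0.05. Colour appears mainly in the mitosis rows of the 2 columns that hold the 550 mg/kg arrays, with 3 and 6 dots.

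The comparison of 550 with 55 mg/kg asked whether the highest dose differed from the next lower one; it uses the same 550 mg/kg arrays as the comparison with vehicle. Here 6 members rose, with 0.577% of all probe sets called higher and 0.686% in either direction. They were Cdkn3 by 1.34 (adjusted p = 0.00742), Ccnb2 by 1.05 (0.00939), Ccna2 by 0.95 (0.0203), Mki67 by 0.82 (0.00598), Bub1 by 0.66 (0.0240) and Kif20a by 0.63 (0.0321), all from limma. These correspond to folds of 1.54 for Kif20a to 2.54 for Cdkn3. Ccna2, which did not pass against vehicle, had vehicle values of 3.58, 4.15, 4.53, 5.14 and 4.26. It ran from 3.61 to 4.62 with a median of 4.25 at 55 mg/kg, and from 4.77 to 5.90 with a median of 4.93 at 550 mg/kg, so the 2 dose groups did not overlap. Ccna2 is dim on these arrays, like Bub1 and Mki67.

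Cdkn3 also separated the 2 doses, with 4.92 to 6.44 (median 5.87) at 55 mg/kg and 6.49 to 7.91 (median 6.95) at 550 mg/kg. In all, 7 of 35 members had all 6 arrays at 550 mg/kg above all 6 at 55 mg/kg (Ccna2, Ccnb1, Ccnb2, Cdk1, Cdkn3, Mki67 and Kif20a), which held for 0.825% of all probe sets. Of the 23 mitosis members 22 were higher at 550 than at 55 mg/kg, with a median of 0.42, and Kif11 was again the exception at -0.06. Of the 9 replication members 7 were higher, with a median of 0.11 and no call, and Rrm1 came nearest (0.29, adjusted p = 0.0628). Without 55 mg/kg replicate 4, or without replicate 5 or 6 at 550 mg/kg, 3 members were called, and a fit on these 2 groups alone called 0. Neither count was set against the share of all probe sets called in the same fits.

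Across the 6 groups the moderated F test called 5 members, with 0.741% of all probe sets called. These were Mki67 (adjusted p = 0.00214), Kif20a (0.0263), Ccnb2 (0.0285), Bub1 (0.0325) and Cdkn3 (0.0474). An unadjusted p under 0.05 in this F test was found for 20 of the 35 members, against 1521 of all 14217 genes. The count of called members was 9 without replicate 6 at 5.50 mg/kg, 3 without replicate 4 at 550 mg/kg, 2 without replicate 1 or 3 at that dose, and 1 without replicate 5 or 6. The share of all probe sets called was not set beside these counts. A slope on dose rank called no member, with 0.171% of all probe sets called. For that slope, 13 members were higher and 1, Ccnd1, lower at an unadjusted p under 0.05 (limma), against 4.61% and 4.81% of all probe sets.

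A further contrast, chosen after the values were seen, set 550 mg/kg against the mean of the other 5 groups, which have 29 arrays between them. It called 16 members. Of the 23 mitosis members 14 were called higher. Of the 9 replication members 1 was called higher (Rrm1, 0.30, adjusted p = 0.00163, limma). Ccnd1 was called lower, with a difference of -0.65 (adjusted p = 0.0249, limma). The mitosis genes called were Ccna2, Ccnb1, Ccnb2, Cdk1, Cdkn3, Bub1, Aurkb, Birc5, Mki67, Top2a, Kif20a, Nusap1, Racgap1 and Ect2. This contrast called 1.68% of all probe sets higher and 1.03% lower.

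The mean over the 23 mitosis members, each less its own mean over the 35 arrays, gives 1 value per array. It was -0.50, -0.02, 0.01, 0.25 and -0.08 in the 5 vehicle arrays and 0.28, 0.30, 0.17, 0.22, 0.65 and 0.83 in the 6 arrays at 550 mg/kg. Group means were -0.07 ± 0.27 in vehicle (SD, n = 5) and 0.41 ± 0.27 at 550 mg/kg (SD, n = 6), and lay between -0.14 and -0.03 in the other 4 groups. All 6 arrays at 550 mg/kg were positive. Replicate 6 at 5.50 mg/kg (0.30), vehicle replicate 4 (0.25) and replicate 3 at 0.05 mg/kg (0.23) nonetheless reached into their range.

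The same mean over the 9 replication members was 0.05 ± 0.18 in vehicle (SD, n = 5) and 0.11 ± 0.09 at 550 mg/kg (SD, n = 6). It was highest in vehicle replicate 5, at 0.33. The array with the highest mitosis mean, replicate 6 at 550 mg/kg, had a replication mean of 0.22, and the array next to it, replicate 5, one of 0.06. Over the 35 arrays with group means taken off, the 2 means had a Pearson r of 0.33 and a Spearman rho of 0.38. Replicate 6 at 5.50 mg/kg and replicate 6 at 550 mg/kg then lay farthest from the median of the mitosis mean. Without those 2 arrays r was 0.18. That relation is weak and rests in part on those 2 arrays.

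**Figure D4:**
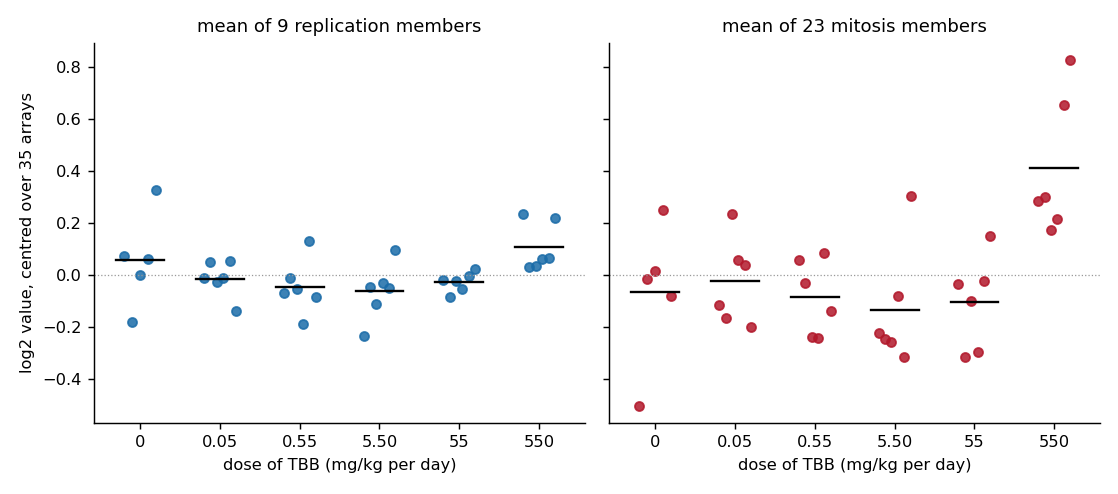
Mean of the 9 replication members (left) and of the 23 mitosis members (right) in each array, each gene centred over the 35 arrays, by daily dose in mg/kg; points are arrays and lines are group means. The mitosis means at 550 mg/kg run from 0.17 to 0.83, above most arrays of the other groups, while the replication means of all groups overlap.

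Mitosis members varied more between arrays of 1 dose than most probe sets. Their SD within groups had a median of 0.27 and lay at a median percentile of 94.3 among all probe sets tested, and 16 of 23 were above the 90th. Cdkn3 (SD 0.50, percentile 98.9), Ect2 (0.42, 98.2) and Cdk1 (0.41, 98.1) led. The replication members had a median SD of 0.15 at percentile 62.8, from Pcna (0.10, percentile 11.2) to Mcm6 (0.28, percentile 94.7). Ccnd1 was as variable as the mitosis genes (0.40, percentile 98.0).

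This spread was shared between the mitosis members. With group means taken off, pairs of mitosis members had a median Pearson r of 0.53 over the 35 arrays (253 pairs). Pairs of replication members had a median of 0.34 (36 pairs), and pairs of a mitosis with a replication member 0.19 (207 pairs). These are descriptions of arrays that each hold 1 RNA sample and 1 hybridisation, which all genes of the array share.

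Within the mitosis class the cyclin and kinase genes followed the class most closely. The r with the mean of the other mitosis members was 0.95 for Ccnb1, 0.94 for Cdk1, 0.93 for Ccna2 and 0.90 for Ect2, and above 0.7 for 14 of 23. It was lowest for Melk and Kif11 (0.34 each), Bub1b (0.40) and Plk1 (0.46). Kif11, Bub1b and Plk1 also had the lowest differences of the class at 550 mg/kg. Of the other members, Ccne2 had an r of 0.61 with the mitosis mean, Pcna 0.39, Ccnd1 -0.06 and Tyms -0.21.

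**Figure D5:**
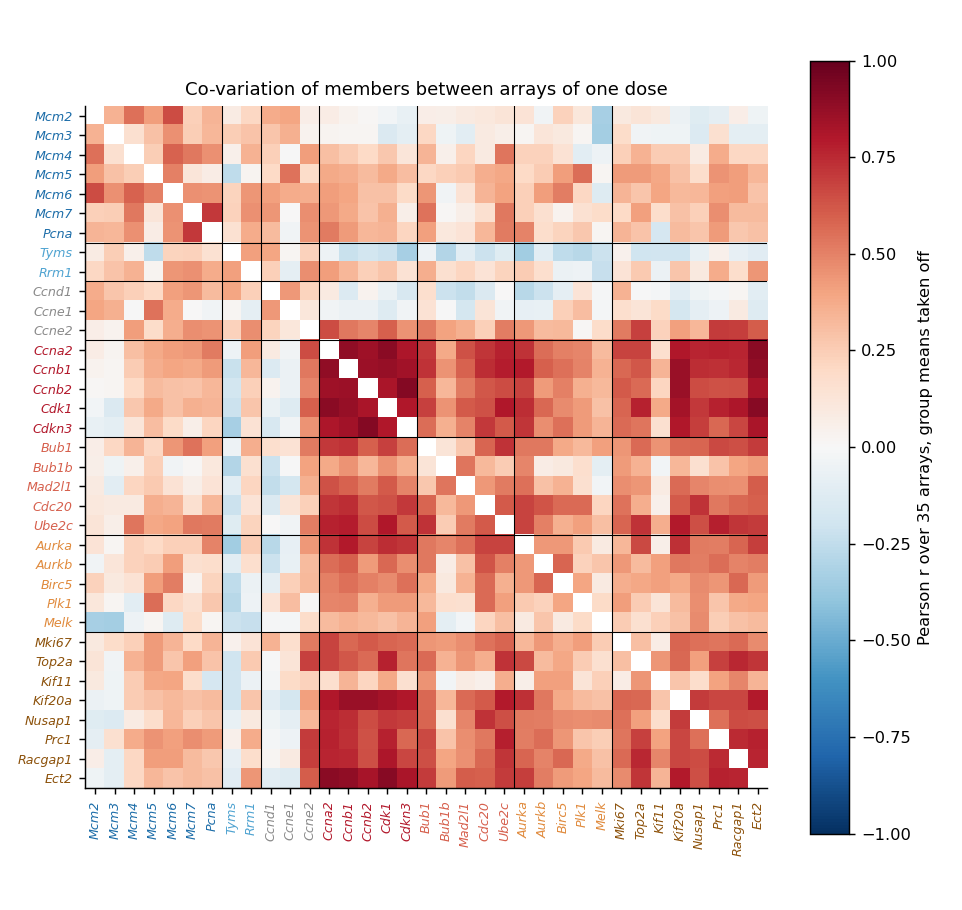
Pearson r between each pair of the 35 measured members over the 35 arrays after group means were taken off; genes are ordered and coloured by role, with black lines between roles. A block of high positive r covers most mitosis members (median of 0.53), with a weaker block among the MCM genes and Pcna.

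The genes outside the set that followed the mitosis mean most closely over the 35 arrays (group means taken off) were Spc25 (r = 0.89), Cdca3 (0.88), Fam111a (0.86), Knstrn (0.84), Nuf2 (0.82), Pclaf (0.82), Pttg1 (0.80), Spc24 (0.80), Hmmr (0.78) and Arhgap11a (0.78). Spc24, Spc25 and Nuf2 are subunits of the NDC80 complex, which joins kinetochores to microtubules. Spearman's rho for the 10 ran from 0.69 for Pttg1 to 0.86 for Spc25, and without the 2 arrays named above r ran from 0.74 to 0.85.

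A wider list of cell cycle genes held 104 measured genes of 120. At 550 mg/kg against vehicle 3 of them rose and none fell, again with 0.499% of probe sets called. Pttg1 (securin), which keeps sister chromatids from separating until anaphase, had vehicle values of 6.19, 6.68, 6.37, 6.90 and 6.60. It ran from 6.84 to 7.75 with a median of 7.04 at 550 mg/kg, where 5 of 6 arrays lay above all vehicle arrays, a difference of 0.67 (adjusted p = 0.00614, limma). Pbk, a mitotic kinase, rose by 0.50 (adjusted p = 0.0124, limma). Like Bub1 and Mki67 it is dim on these arrays, with a mean of 4.16.

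Dut, the dUTPase that keeps uracil out of DNA, was the 1 replication gene called, with vehicle values of 9.34, 9.41, 9.39, 9.57 and 9.41. Its 550 mg/kg values ran from 9.55 to 9.83 with a median of 9.66, a rise of 0.26 (1.20-fold, adjusted p = 0.0399, limma). Without vehicle replicate 1 the wider list had 1 call and without vehicle replicate 4 it had 5, counts not set against the share of all probe sets.

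By list, 32 of 37 further mitosis genes had a higher mean at 550 mg/kg than in vehicle (median 0.16, 14 higher and 1 lower at an unadjusted p under 0.05). Of 24 further replication genes 19 were higher (median 0.09, 5 at an unadjusted p under 0.05, all higher). Transcription factors and G1 regulators were split, with 11 of 19 higher and a median of 0.01, as were cyclin-dependent kinase inhibitors and related brakes (6 of 14) and growth factors and receptors of hepatocyte proliferation (5 of 10). Foxm1, which drives G2 and M genes, differed by 0.17 (adjusted p = 0.48), Mybl2 by 0.09 (0.87) and E2f1 by 0.07 (0.93).

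Against 55 mg/kg 7 of 37 further mitosis genes rose, with 0.577% of all probe sets called higher: Cdca3 by 0.90, Spc24 by 0.83, Pttg1 by 0.63, Depdc1 by 0.55, Kif2c by 0.46, Pbk by 0.46 and Cenpf by 0.39 (adjusted p-values from 0.00676 for Pttg1 to 0.0404 for Cenpf, limma). Kif2c is a kinesin that depolymerises microtubules, and Cenpf a kinetochore protein of G2 and M phase. Depdc1, with a mean of 3.14, is dim on these arrays, as is Pbk.

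Cdkn1a (p21), the p53 target that inhibits cyclin-dependent kinases, fell by 0.86 between 55 and 550 mg/kg (adjusted p = 0.0488, limma). It ran from 7.04 to 8.06 with a median of 7.30 at 55 mg/kg and from 5.81 to 6.97 with a median of 6.54 at 550 mg/kg, so these groups did not overlap. Its vehicle values were 7.17, 6.69, 7.56, 7.45 and 6.67, and the difference from vehicle was -0.57 (adjusted p = 0.40).

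Markers of the cell types in liver were read in the same arrays, since dividing cells need not be hepatocytes. At 550 mg/kg against vehicle 8 of 8 Kupffer cell and macrophage markers, 5 of 5 endothelial, 7 of 8 stellate cell, 4 of 5 cholangiocyte, 4 of 6 lymphocyte, 3 of 4 neutrophil and 5 of 5 erythroid markers had a lower mean, and none of these was called. Of 11 hepatocyte markers 8 were lower, with 1 called, the apolipoprotein gene Apoa1 (-0.51, adjusted p = 7.3e-06, limma). The lower doses shared the same vehicle arrays. At 0.05, 0.55, 5.50 and 55 mg/kg, 7, 8, 7 and 7 of 8 Kupffer cell and macrophage markers were lower. So were 4, 5, 4 and 3 of 5 endothelial and 4, 5, 5 and 5 of 5 erythroid markers. Lower stellate cell markers numbered 3, 6, 8 and 7 of 8, and cholangiocyte markers 3, 4, 5 and 3 of 5. Lower lymphocyte markers numbered 2, 1, 2 and 2 of 6, and neutrophil markers 3, 1, 3 and 2 of 4.

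The erythroid marker mean, centred like the means above, ran from -0.10 to 0.26 in vehicle and from -0.30 to -0.06 at 550 mg/kg, and the hepatocyte marker mean from -0.04 to 0.09 and from -0.22 to -0.02. The Kupffer cell and macrophage mean ran from -0.04 to 0.35 in vehicle and from -0.43 to 0.24 at 550 mg/kg. For lymphocytes the ranges were -0.18 to 0.07 and -0.27 to 0.04. Over the 35 arrays with group means taken off, the r of the mitosis mean with these lists was highest for lymphocyte (0.37) and neutrophil markers (0.29) and -0.18 for hepatocyte markers. Their part in the mitosis differences was not tested.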

How the data were processed

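Liver RNA of 35 samples was measured on single-colour Affymetrix 3' arrays. The deposited log2 values, 1 per probe set, come from RMA and affy as run by the authors, per the submitters' processing notes (versions not given in the sources used). Because RMA gives all arrays nearly the same distribution, a change shared by most genes cannot be seen. Groups came from the labels. Of 31099 probe sets, 57 Affymetrix controls were left out; 20826 of the other 31042 had 1 symbol. limma 3.58.1 in R 4.3.3 fitted 1 mean per group over all 35 arrays (lmFit, contrasts.fit, eBayes), two-sided, with Benjamini-Hochberg adjustment and a threshold of 0.05, and was tested on simulated data. A slope on dose rank and a moderated F test used the same arrays. Python 3.11.15 with pandas 2.3.3 searched the promoters. Alternatives changed the dim filter (40%), centring, normalization, variance model, arrays fitted, array weights, replicate block and probe set choice. The members and lists were chosen with earlier results of these data known. Array values are given for members called against vehicle, against 55 mg/kg or across groups, and for the brightest member of a role with none; Cdkn1a, E2f1, Foxm1 and Mybl2 were named whatever their values. Other members, including those called only in the contrast added later, are given mostly by their differences.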

Additional observations from a re-analysis of the deposited data

Results flagged for a closer look

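Within a group of 5 or 6 arrays, 1 array stood apart from the others, by Dixon's criterion of the gap to its nearest neighbour over the group's range, in 8 of 144 groups examined (22 genes and the 2 class means in 6 groups). Chance alone flags about 1 in 20 groups, so 8 is near the number that many groups give. Bub1 was lowest in vehicle replicate 1, at 3.24 against 3.73 to 3.91 in the others, and high in replicate 3 at 0.05 mg/kg, at 3.95. Ccna2 was high in replicate 6 at 5.50 mg/kg, at 4.97 against 3.95 to 4.29. Cdca3, a gene of mitotic entry, was high in the same array, at 6.90, and in replicate 6 at 550 mg/kg, at 7.96 against 6.66 to 7.08. Dut was high in vehicle replicate 4, at 9.57, and Kif2c in replicate 2 at 0.55 mg/kg, at 4.71. Cdkn1a was high in replicate 1 at 55 mg/kg, at 8.06 against 7.04 to 7.41.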

How the results depend on the processing

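The 4 lower doses gave 0 called members in each alternative and with each array left out in turn. At 550 mg/kg against vehicle the count of 3 became 1 with array medians subtracted, 0 with only the groups compared in the fit, 1 with the replicate block and 16 against the mean of the other 5 groups, an alternative chosen after seeing the data, and it ran from 0 to 8 with arrays left out. For 550 against 55 mg/kg the count of 6 became 0 with only the groups compared, and ran from 3 to 7 with arrays left out. Across the 6 groups the count of 5 became 3 with the replicate block, and ran from 1 to 9 with arrays left out; the slope on dose rank gave 0 to 1. The wider list's count of 3 became 0 with only the groups compared, and ran from 1 to 5 with arrays left out. Against the other 5 groups it was 19, with 18 higher and 1, Cdkn1a, lower. At 550 mg/kg Ccnb2 lost its call in 5 of 9 alternatives (also with trended robust variances and with array weights). Bub1 lost it in 4 of 8 (also with cyclic loess) and Mki67 in 1 of 8, the fit on the groups compared. For each gene 1 of the alternatives is the contrast with the mean of the other 5 groups. That contrast is not a comparison with vehicle alone, was chosen after seeing the data, and kept the call of all 3 genes. No difference of a called gene changed sign. Same-numbered arrays of different groups had a median correlation of deviations of -0.009 over 85 pairs. These ran from -0.31 to 0.27, with 17 over 0.1. The median gave no sign of a pairing by replicate number common to all groups. Pairing or a batch shared by some groups alone was not tested. Leaving out the 40% dimmest probe sets kept 27 members, without Bub1, Mki67 and Ccna2, and called 2 at 550 mg/kg against vehicle (Ccnb2 and Kif20a), 5 against 55 mg/kg and 4 across groups. The 8 members left out are those with the weakest signal. Except for the contrast with the other 5 groups, counts under these alternatives were not set against the share of all probe sets called. With array medians subtracted or under cyclic loess, 22 of 23 mitosis and 6 of 9 replication members stayed higher at 550 mg/kg.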

Other observations

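Over the 35 arrays with group means taken off, 5 genes outside the set had the most negative correlations with the mitosis mean. Ppara, the nuclear receptor that controls fatty acid oxidation, had r = -0.69 (Spearman rho = -0.68), and r = -0.65 without the 2 arrays farthest from the median of the mitosis mean. Tst, the mitochondrial enzyme thiosulfate sulfurtransferase, had r = -0.65, Spint1, a serine protease inhibitor, r = -0.60, Cyp27a1, a sterol hydroxylase of bile acid synthesis, r = -0.59, and Foxp4, a forkhead transcription factor, r = -0.59. Without those 2 arrays r was -0.59 for Tst, -0.51 for Spint1, -0.61 for Cyp27a1 and -0.60 for Foxp4. These are the lowest of all genes with a single-symbol probe set, and their values describe the extremes of a ranking.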
